A study of Mus musculus with 3 samples.

Results

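Of the 3087 peaks listed for the glucocorticoid receptor (GR) in GR knockout mouse skeletal muscle, 277 (8.97%) had their summit within 5000 bp of a start site of a protein-coding gene. A start site was the first base of any protein-coding transcript tagged basic in GENCODE vM21, and the summit is the base of highest read pileup that the peak caller reported. All repeat classes were kept, and neither the strength nor the sequence of a peak entered the choice. These 277 are called the start-site peaks below, and the 2810 others the distal peaks. Together they lay within 5000 bp of the starts of 265 of the 21827 protein-coding genes, or 1.21% of them.

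The material was nuclei of C57/Bl6J skeletal muscle, taken for chromatin immunoprecipitation and sequencing (ChIP-seq). The sample labels give the age of the mice as 10 to 12 weeks and the series' design text as 10 weeks. The GR library came from mice of the genotype GR(i)skm-/- and an antibody to the C terminus of GR, and an input library of that genotype is listed beside it. The labels do not name the Cre driver, any inducing agent, or the cells that still hold GR. A second list came from H3K27me3 ChIP of WT muscle, so that genotype and target differ together between the lists. Each list comes from 1 library, and GR ChIP of WT mice was not analysed here. Peaks of 1 library are not replicates of a condition, so the values below are descriptions with no test, and all intervals are exact Clopper-Pearson 95% intervals that cover counting error only. A peak list holds no measure of the tissue or of the deleted gene, so neither label could be checked against the values.

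GR, the product of Nr3c1, is a nuclear receptor that enters the nucleus when it binds glucocorticoid hormone. As a dimer it binds a palindromic response element whose arms are separated by a short spacer, and it also acts through other factors without contacting that element. In skeletal muscle it is known for its part in protein breakdown and glucose metabolism. Microsatellites are runs of a short unit copied head to tail, and GA and CA runs are among the commonest of them in the mouse genome.

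The start-site peaks were mostly such runs. The sequences below show the kinds, chosen for strength, for closeness to a start, or because the gene belongs to a muscle, stress or developmental list. Each is the whole deposited peak, and capitals mark perfect runs of its commonest unit of 1 to 6 bases, of at least 3 units and at least 8 bp. The first set holds the start-site peak of highest fold, at Trim29, and 4 GA peaks at genes of the lists. The GA run reads as CT where the purines lie on the minus strand.
Trim29 chr9:43310114-43310228 (mm10, plus strand): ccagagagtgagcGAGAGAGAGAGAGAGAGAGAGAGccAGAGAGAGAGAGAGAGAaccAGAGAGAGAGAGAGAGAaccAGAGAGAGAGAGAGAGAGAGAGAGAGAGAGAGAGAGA
Trib3 chr2:152343677-152343737 (mm10, plus strand): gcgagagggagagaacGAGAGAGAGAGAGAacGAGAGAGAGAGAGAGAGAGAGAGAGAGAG
Fxyd1 chr7:31055909-31055990 (mm10, plus strand): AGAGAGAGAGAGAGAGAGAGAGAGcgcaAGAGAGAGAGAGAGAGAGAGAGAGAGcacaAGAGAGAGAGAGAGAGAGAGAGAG
Foxp2 chr6:15185292-15185345 (mm10, plus strand): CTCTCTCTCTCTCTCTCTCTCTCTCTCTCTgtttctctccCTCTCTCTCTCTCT
Tpm2 chr4:43525099-43525191 (mm10, plus strand): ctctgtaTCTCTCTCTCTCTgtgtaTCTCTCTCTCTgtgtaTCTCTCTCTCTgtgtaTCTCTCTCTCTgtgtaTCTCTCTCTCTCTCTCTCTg
In these 5 peaks the GA runs are broken by short interruptions, such as the repeated acc between the runs at Trim29 and gtgta between those at Tpm2. The capitals make up between 69.9% of the peak at Tpm2 and 90.2% at Fxyd1.

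The second set shows the CA class, which is second in number, at its 2 strongest members and at 2 genes that carry more than 1 peak.
Npy5r chr8:66686522-66686655 (mm10, plus strand): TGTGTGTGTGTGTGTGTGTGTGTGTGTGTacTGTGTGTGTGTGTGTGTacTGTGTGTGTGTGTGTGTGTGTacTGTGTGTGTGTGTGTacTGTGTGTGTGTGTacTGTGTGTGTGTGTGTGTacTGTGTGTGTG
Scamp1 chr13:94243392-94243472 (mm10, plus strand): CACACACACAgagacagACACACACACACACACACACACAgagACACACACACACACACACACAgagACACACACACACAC
Olfm5 chr7:104165659-104165732 (mm10, plus strand): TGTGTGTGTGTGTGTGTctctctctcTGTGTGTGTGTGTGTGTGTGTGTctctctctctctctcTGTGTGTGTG
Cat chr2:103486841-103487019 (mm10, plus strand): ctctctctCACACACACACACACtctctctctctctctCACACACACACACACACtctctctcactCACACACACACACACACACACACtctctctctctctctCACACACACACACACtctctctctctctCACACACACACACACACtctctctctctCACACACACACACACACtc
At Npy5r the run is almost pure and takes 91.0% of the peak. As printed, TG runs (the complement of CA) alternate with CT runs at Olfm5, and CA runs alternate with CT runs at Cat. The CA unit made up 58.1% of the Cat peak, and all tandem runs together made up 97.2% of it.

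The third set shows the strongest peaks whose unit was neither GA nor CA.
Fam24b chr7:131328331-131328453 (mm10, plus strand): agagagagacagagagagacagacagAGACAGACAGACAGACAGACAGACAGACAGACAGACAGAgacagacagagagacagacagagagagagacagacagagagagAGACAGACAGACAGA
Fbxw7 chr3:84817872-84817953 (mm10, plus strand): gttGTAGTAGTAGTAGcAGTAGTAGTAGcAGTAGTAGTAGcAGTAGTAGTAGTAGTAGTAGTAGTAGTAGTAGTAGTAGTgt
Rps6ka3 chrX:159206056-159206190 (mm10, plus strand): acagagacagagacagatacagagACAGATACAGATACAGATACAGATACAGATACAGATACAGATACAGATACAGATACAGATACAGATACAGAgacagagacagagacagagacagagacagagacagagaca
Their units were ACAG at Fam24b, ACT (read here as AGT) at Fbxw7 and ACAGAT at Rps6ka3.

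The last set shows peaks that were not counted as tandem repeats. In the first and second of them capitals mark the bases of a tRNA gene, and the other 3 carry no capitals.
Ctnna3 chr10:63429483-63429551 (mm10, plus strand): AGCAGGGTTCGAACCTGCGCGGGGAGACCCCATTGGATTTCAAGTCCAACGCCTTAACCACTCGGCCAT
Polr3e chr7:120917512-120917561 (mm10, plus strand): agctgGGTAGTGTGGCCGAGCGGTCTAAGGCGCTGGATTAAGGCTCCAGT
Hist1h4a chr13:23761054-23761104 (mm10, plus strand): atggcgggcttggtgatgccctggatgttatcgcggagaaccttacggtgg
Gm10718 chr9:3023484-3023565 (mm10, plus strand): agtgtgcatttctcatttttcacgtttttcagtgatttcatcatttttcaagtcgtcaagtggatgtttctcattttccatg
Dennd1c chr17:57077438-57077522 (mm10, plus strand): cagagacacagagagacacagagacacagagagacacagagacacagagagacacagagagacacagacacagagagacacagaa
The Hist1h4a peak lies in the coding exon of a histone H4 gene, the Gm10718 peak in an array of predicted genes, and the Dennd1c peak in an imperfect repeat of cagagaca-like units that the rule for perfect runs passed over.

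A peak counted as a tandem repeat when perfect runs of units of at most 6 bases covered at least 50% of its bases. By that rule 217 of the 277 start-site peaks were tandem repeats (78.3%, interval 73.0 to 83.0), against 86.7% of the distal peaks (85.4 to 88.0). The lower share is no measure of unrepeated sequence, because the rule passes over repeats of longer units. It rested on 3 dense groups of peaks at predicted genes, described further on, which held 30 start-site peaks. Without these 30 the share was 217 of 247 (87.9%, 83.1 to 91.7), beside 86.9% of the distal peaks outside such groups. The grouping was made after the peaks had been seen. With tracts required over 80% of a peak, 138 start-site peaks counted (49.8%), beside 1405 of the 2810 distal ones.

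GA was the commonest unit, with 113 start-site peaks. Outside the dense groups this was 45.7% (39.4 to 52.2), beside 47.7% (45.9 to 49.6) of the distal peaks. CA followed with 65 peaks. CA took a larger share near start sites, at 26.3% (20.9 to 32.3), than among distal peaks, at 18.8% (17.4 to 20.3), and the intervals do not overlap. With all 277 peaks as the base the CA share was 23.5% (18.6 to 28.9), which overlaps the distal interval. Closer in, the share varied. Within 2500 bp it was 18.6% of 156 peaks, but that base includes the dense groups, which hold no CA peak and so lower it. Outside the groups, CA made up 6 of 33 upstream and 3 of 16 downstream peaks within 1000 bp. From 1000 to 2000 bp it made up 10 of 35 upstream and 6 of 22 downstream peaks. ACAG made up 15 start-site peaks, at 6.07% outside the groups beside 4.96% of the distal ones. The remaining 15 units together made up fewer, 24 peaks or 9.72% (6.33 to 14.1), than among distal peaks, 15.4% (14.1 to 16.8). The commonest of them were ACT and ACTC with 4 peaks each and ACC with 3.

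**Figure D1:**
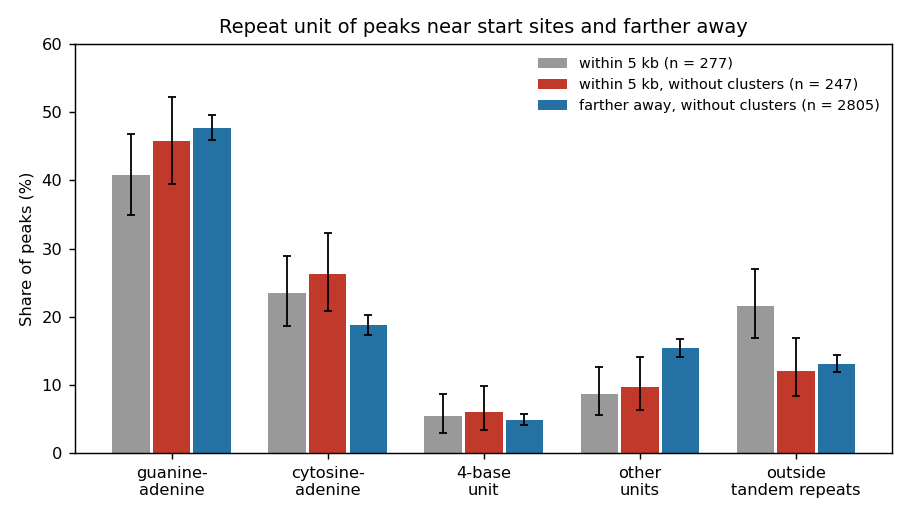
Share of peaks by commonest repeat unit (y axis, percent; bars are shares and whiskers are exact 95% intervals for counting error) for all 277 start-site peaks, the 247 outside the dense groups (called clusters in the legend) and the distal peaks outside them; the 4-base unit is ACAG. The cytosine-adenine bar is higher near start sites (26.3%) than farther away (18.8%), and the bar for peaks outside tandem repeats falls from 21.7% to 12.1% once the dense groups are left out.

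The genome itself puts 8.79% of its bases within 5000 bp of a start, and 8.97% of the GR peaks lay there (8.09% outside the dense groups). By unit, 7.78% of the 1452 GA peaks and 11.0% of the 592 CA peaks lay near a start. Perfect tracts of at least 20 bp give a background, with 8.43% of the genome's GA tracts and 8.73% of its CA tracts within that distance. It is not matched to the peak classes, which sum runs of at least 8 bp over a peak. Read per tract, 121 of the 10549 GA tracts near starts overlapped a peak (1.15%), beside 1.29% of the 114579 elsewhere. Of the CA tracts near starts, 107 of 24422 did (0.438%), beside 0.358% of the 255333 elsewhere. A GA tract thus carried a peak more often than a CA tract in both places, and in neither place did more than 1.3% of the tracts of either unit carry one. Tracts with a peak are not a count of peaks, since a peak can hold several tracts. The 107 CA tracts near starts stand beside 65 start-site peaks of the CA class. Tract lengths were alike, with means of 41.4 bp near starts and 42.4 bp elsewhere for GA, and 35.9 and 36.4 bp for CA.

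Start-site peaks lay upstream of the nearest start more often than downstream. Of the 277, 164 were upstream (59.2%, 53.2 to 65.1). Without the dense groups 151 of 247 were upstream (61.1%, 54.8 to 67.3), while the distal peaks, placed by their own nearest start, were upstream in 46.9%. Of all bases within 5000 bp of a start, 47.9% were upstream. The tracts themselves were uneven: 57.1% of the GA tracts and 51.7% of the CA tracts near starts lay upstream. Per tract, 81 of 6026 upstream GA tracts overlapped a peak (1.34%), beside 40 of 4523 downstream (0.884%). For CA the counts were 62 of 12631 upstream (0.491%) and 45 of 11791 downstream (0.382%). The share of tracts with a peak was therefore higher upstream for both units, and the difference was not tested.

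**Figure D2:**
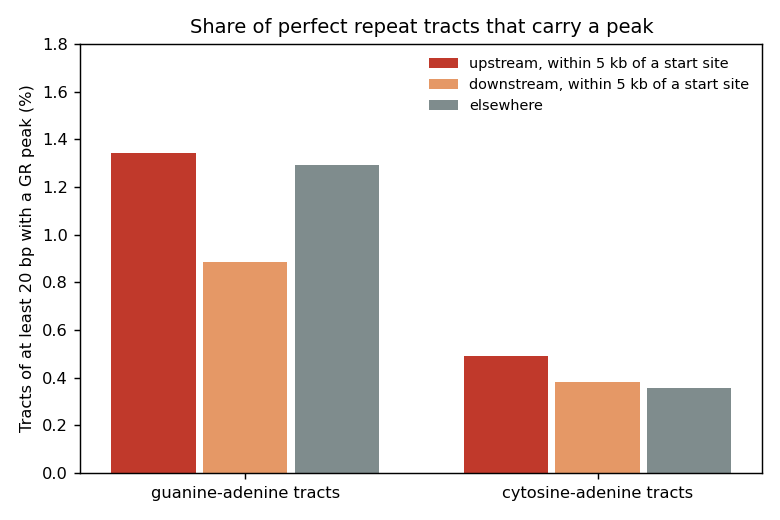
Percent of perfect tracts of at least 20 bp that overlap a GR peak (y axis), for tracts upstream or downstream of a start within 5 kb and for tracts elsewhere; bars are shares of all such tracts in mm10 and carry no error bars. Guanine-adenine tracts stand at 1.34% upstream, 0.884% downstream and 1.29% elsewhere, all above the cytosine-adenine tracts at 0.491%, 0.382% and 0.358%.

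The median distance to the nearest start was 2126 bp over all 277 peaks and 2389 bp without the dense groups, with quartiles of 1184 and 3639 bp. Counted per 1000 bp outward from the start, upstream peaks outside the groups numbered 33, 35, 30, 27 and 26, and downstream peaks 16, 22, 17, 22 and 19. The upstream excess was thus largest in the first 1000 bp, where 33 peaks stood against 16. Within 1000 bp on either side there were 70 peaks, 49 of them outside the groups, and within 250 bp there were 16, of which 9 were outside. Just inside the 5000 bp limit lay peaks of Sh2d1a (4970 bp upstream, 15.02-fold), Amotl1 (4974 bp downstream, 31.7-fold) and Pigz (4981 bp upstream, 13.6-fold). Just outside lay those of Slc33a1 (signed distance −5030 bp, 24.4-fold), Ptchd4 (−5060 bp, 14.1-fold) and Adam32 (5062 bp, 12.2-fold), where a minus sign means upstream.

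**Figure D3:**
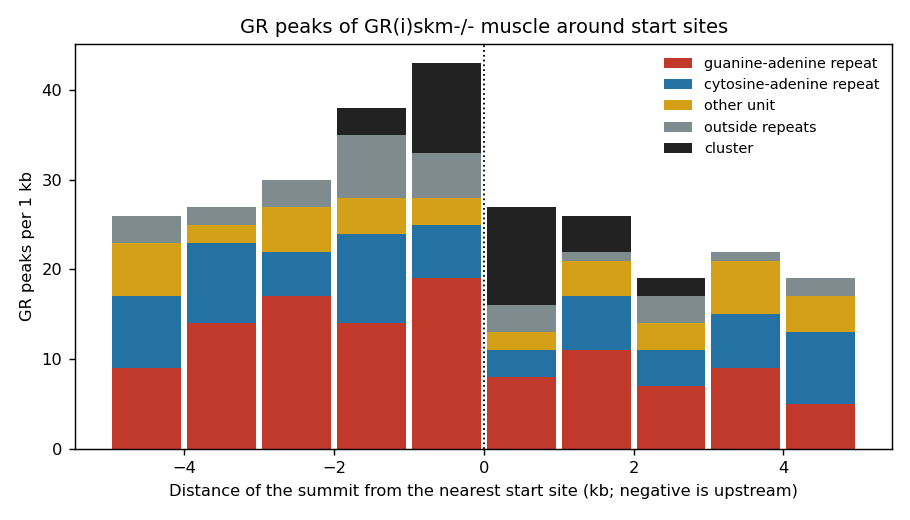
Number of GR peaks per 1 kb (y axis) by signed distance of the summit from the nearest start site (x axis, kb, negative upstream), stacked by repeat class. The 2 bins next to the start hold 43 peaks upstream and 27 downstream, of which the dense groups (black) make up 10 and 11.

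Upstream and downstream peaks differed little in repeat unit. Outside the dense groups GA made up 73 of 151 upstream peaks (48.3%, 40.1 to 56.6) and 40 of 96 downstream peaks (41.7%, 31.7 to 52.2). CA made up 25.2% and 28.1%, and the intervals overlap for both units. By annotation, 124 of the upstream peaks were intergenic, and 74 of the downstream peaks were intronic, 55 of these in the first intron of the nearest transcript. Introns lie downstream of their own start, so the side fixes much of that split. Over all 277 peaks, 149 were intergenic, 110 intronic, 11 in a coding exon and 7 in a 3′ UTR. None had its summit in a 5′ UTR, which allows a share of up to 1.32% (exact interval).

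Repeat strands were read relative to the gene. The GA run, as opposed to its CT complement, lay on the coding strand in 66 of 113 GA peaks near starts (58.4%, 48.8 to 67.6) and in 638 of 1339 distal GA peaks (47.6%, 44.9 to 50.4). The intervals overlap. Of all GA tracts near starts 49.8% had that orientation. The CA run lay on the coding strand in 26 of 38 upstream CA peaks (68.4%, 51.4 to 82.5) and in 11 of 27 downstream CA peaks (40.7%, 22.4 to 61.2). The matching shares of all CA tracts were 49.4% upstream and 40.9% downstream, so only the upstream peaks had an interval above the share of their tracts. No test of this was run.

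Strength is given by the authors' own values for each peak. Fold enrichment is the summit pileup over the local background that the peak caller estimated, and −log10 q is its significance after adjustment. Fold enrichment of the start-site peaks ran from 7.73 to 74.7, with a median of 16.8 and quartiles of 13.7 and 21.8. The distal peaks had a median of 16.3 and ran from 10.0 to 74.2. The −log10 q ran from 20.01 to 197 with a median of 32.5, and the deposited list as a whole starts at 20.01. Peak width ran from 49 to 731 bp with a median of 68 bp.

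These strengths rest on few reads. The number of reads at each summit, recovered from the fold and the −log10 p, was 12 to 92 with a median of 19, beside 17 for distal peaks. In 86 start-site peaks (31.05%) it was 12 to 15 reads, beside 39.96% of the distal peaks. Outside the dense groups these shares were 34.8% and 40.04%. The estimated background had a median of 0.0870 reads and a lowest value of 0.0651, so that the fold of such peaks follows the read number closely. A peak at 12.2-fold, such as the one near Dcaf12l2, is a pile of 12 reads over 0.0652.

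Strength varied little with unit, side or distance. Median fold was 17.01 for GA, 16.9 for CA, 16.0 for ACAG, 18.8 for other units, and 17.9 for peaks outside both tandem repeats and dense groups. Upstream peaks had a median of 18.1-fold and downstream peaks 16.8-fold, without the groups. In the 5 successive 1000 bp rings around the starts the median was 15.96, 18.14, 17.01, 17.27 and 17.47, with interquartile ranges that overlap throughout. At least 20-fold were 89 start-site peaks (32.1%, 26.7 to 38.0) and 30.1% of the distal peaks. At least 30-fold were 29 (10.5%, 7.12 to 14.7) and 9.68%.

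**Figure D4:**
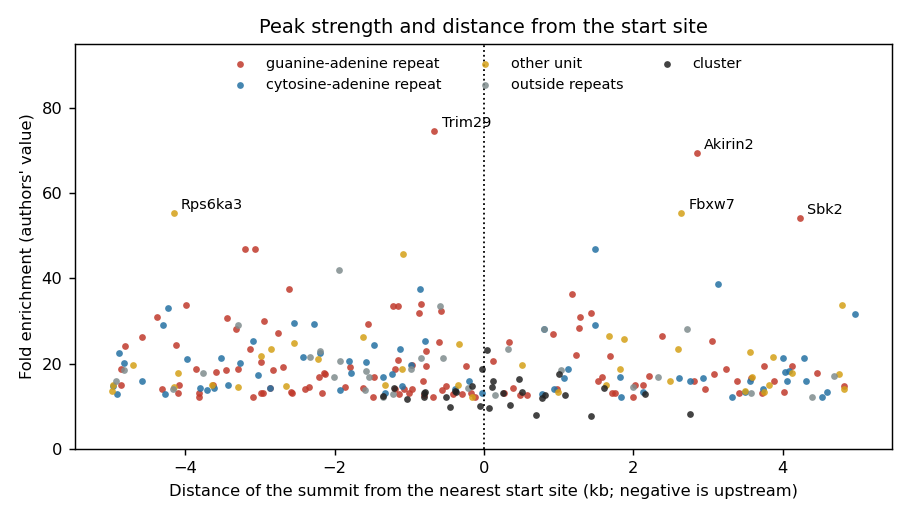
Fold enrichment as deposited (y axis) against signed distance from the nearest start site (x axis, kb, negative upstream), 1 point for each of the 277 peaks, coloured by repeat class, with the 5 strongest named by gene. The middle 50% of the peaks lie between 13.7-fold and 21.8-fold, and the dense groups (black) sit near the start at 7.73-fold to 23.3-fold.

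Taken separately, the distal maxima of −log10 q (201, beside 197) and of reads (85, beside 81) exceeded the values of the start-site peak of highest fold. That start-site peak had the highest fold of the whole list. It lay 665 bp upstream of Trim29, a member of the tripartite-motif family, in a GA repeat, with 81 reads over a background of 0.0984 and a fold of 74.7 (−log10 q 197). The second, of 73 reads and 69.5-fold, lay in an intron 2847 bp into Akirin2, a nuclear protein involved in proteasome import, and ranked 4 in the whole list. It was 387 bp wide, and a CA peak of 21.6-fold lay 2426 bp upstream of the same gene.

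The next 3 had 58 or 59 reads. The peak of Rps6ka3, which encodes the kinase RSK2, lay 4156 bp upstream at 55.4-fold. That of Fbxw7, the substrate-binding subunit of a ubiquitin ligase, lay 2645 bp downstream in an intron, also at 55.4-fold. That of Sbk2, a serine/threonine kinase gene, lay 4235 bp downstream at 54.3-fold. All 3 had tandem runs over more than 80% of their bases.

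The next 4 peaks stood between 45.7-fold and 46.9-fold. They belonged to Npy5r, a receptor for neuropeptide Y (49 reads), Rgs18, a regulator of G protein signalling (49 reads), Tmem33, a membrane protein of the endoplasmic reticulum (52 reads), and Fam24b (49 reads). Cd44, the hyaluronan receptor, had a peak of 42.0-fold and 44 reads 1943 bp upstream. It was the strongest start-site peak not counted as a tandem repeat, with runs over 42.7% of its bases and ACAG as the commonest unit.

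The others among the 20 strongest ran from 33.5-fold to 38.6-fold with 35 to 42 reads. They lay near Scamp1, Trim40, Olfm5, Stpg4, Gnb5, Tro, Olfr180, Inpp5d, Ehd4 and Ctnna3. Their genes share no single role: Scamp1 encodes a secretory carrier membrane protein, Gnb5 a G protein beta subunit, Inpp5d the phosphatase SHIP1, Ehd4 an endocytic ATPase and Ctnna3 an alpha catenin. The Tro peak, 3987 bp upstream on chromosome X, was the 1 start-site peak outside the dense groups that shared a base with an H3K27me3 region of WT muscle.

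**Figure D5:**
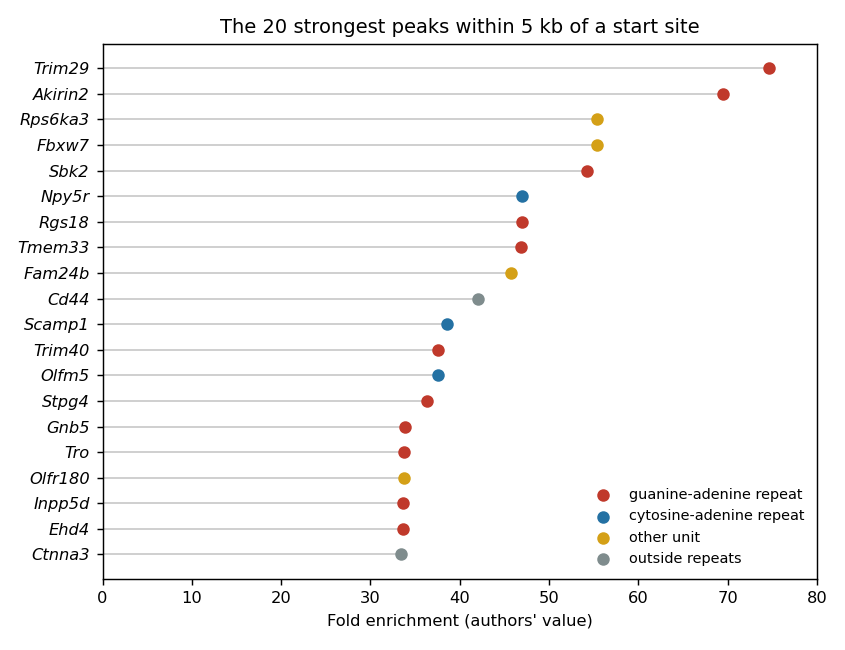
Fold enrichment as deposited (x axis) of the 20 strongest start-site peaks, named by the gene with the nearest start (y axis) and coloured by repeat class; each point is 1 peak of 1 library and has no error bar. Values fall from 74.7 at Trim29 to 33.5 at Ctnna3, and 11 of the 20 are guanine-adenine repeats.

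The nearest start-site peak outside the dense groups lay 25 bp upstream of Ak5, an adenylate kinase gene, in a CA repeat with 13 reads and 13.1-fold. Next came Il1b, the cytokine interleukin 1 beta, with an intronic GA peak 123 bp downstream, 21 reads and 20.7-fold. The peaks of Olfr813 (124 bp upstream), Hist1h4a (147 bp downstream), Gm11116 (163 bp upstream) and Foxp2 (175 bp upstream) had 12 or 13 reads each and 12.2-fold to 13.1-fold. Dnajc11, a mitochondrial J-domain protein, had a CA peak 200 bp upstream with 18 reads, and Polr3e followed at 214 bp. Of these 8 peaks, only that of Il1b passed 20-fold, but the count depends on where the list ends. The next outside the groups were Fxyd1 (240 bp, 19.4-fold), Dcpp2 (265 bp, 13.1-fold), Cdh26 (290 bp, 12.9-fold), Gm21876 (315 bp, 23.5-fold) and Trib3 (328 bp, 25.1-fold).

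Among 16 gene lists, the count of genes with a peak was small in each. No list had more than 2 genes with a peak, and 1.21% of all genes had one. Of 44 genes known to be induced by glucocorticoids, 0 had a peak within 5000 bp of a start. The same 0 held for 33 genes of muscle energy metabolism, and for 33 Polycomb and chromatin genes. Markers of endothelial cells (20), fibroblasts (20), leukocytes (22), satellite cells (15), adipocytes and smooth muscle (18) and of liver and germline (21) also had 0. At a background of 1.21% a list of that size holds under 1 gene, so a 0 says little.

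Contractile and calcium-handling genes had 2 of 50 (4.0%). Fxyd1, phospholemman, a regulator of the sodium pump in muscle, had a GA peak 240 bp upstream with 21 reads and 19.4-fold, and the starts of Fxyd7 and Lgi4 lay within 5000 bp of the same summit. Tpm2, beta tropomyosin of the thin filament, had a GA peak 1549 bp upstream with 32 reads and 29.2-fold. Myogenic regulators had 1 of 18, Vgll2, a TEAD cofactor of skeletal muscle, with 24 reads and 23.4-fold 3142 bp upstream. All 3 are GA repeats.

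Stress signalling had 1 of 29, Trib3, a pseudokinase of the integrated stress response, with an intronic GA peak 328 bp downstream, 29 reads and 25.1-fold. Cytokine and inflammation genes had 2 of 41, Il1b and Tgfb2, the latter at 3497 bp with 14 reads and 13.3-fold. Neuronal and synaptic genes had 2 of 40. These were Dlg4, the scaffold PSD-95, at 13.4-fold, and Syp, synaptophysin, at 15.02-fold. Developmental factors had 2 of 70, Foxp2 and Pax6, with 13 and 14 reads, and signalling ligands 1 of 45, Fgf2, with 15 reads.

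Other genes with roles in muscle or metabolism had peaks as well, chosen here after their values were seen. Stbd1, a glycogen-binding protein, had a peak 581 bp upstream at 32.4-fold. Klf4, a zinc-finger factor, had one 4807 bp upstream at 24.0-fold. Nr1d1, the clock repressor REV-ERB alpha, had one 3274 bp upstream at 20.1-fold, and Pcx, pyruvate carboxylase, one 504 bp downstream at 19.6-fold. Hk1, hexokinase 1, stood at 15.9-fold and Klhl40, a thin-filament stabiliser, at 14.2-fold. With 265 genes carrying a peak, such members can be picked out of many classes.

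Gene families taken by symbol, 25 in all, are read against the same 1.21% of all genes. Olfactory receptors, the largest family, had 19 of 1133 (1.68%), each by 1 peak, a share near that background. Their folds ran from 12.2 to 33.8 with a median of 16.0. Solute carriers had 5 of 371 (1.35%), also near it. Tripartite-motif genes had 3 of 68, Trim29, Trim40 and Trim41, and only the first and second were tandem repeats, since the Trim41 peak overlaps a tRNA gene. Tmem genes had 3 of 242.

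Aminoacyl-tRNA synthetases, which load tRNAs with their amino acids, had 3 of 34. These were Yars2 (27.2-fold, 2760 bp upstream), Fars2 (15.9-fold, 2759 bp downstream) and Mars2 (12.1-fold, 1489 bp upstream). All 3 carry the symbol suffix of the mitochondrial enzymes and lay in GA or CA repeats. The canonical histones had 4 of 67, but 1 peak gave all 4, since the starts of Hist1h1a, Hist1h3a, Hist1h4a and Hist1h4b lay within 5000 bp of its summit. That peak had 13 reads. A pattern for ribosomal proteins picked up only Rps6ka3, which is a kinase. Potassium channels (94), vomeronasal receptors (330), collagens (45), keratins (53), Hox genes (39) and Rab GTPases (69) had 0.

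Most genes had a single peak. Outside the dense groups 236 genes were nearest to a peak, and 10 of them were nearest to more than 1. Olfm5, an olfactomedin gene, had 3 CA peaks 862, 978 and 1123 bp upstream, with 39, 20 and 24 reads. Cat, the peroxide-degrading enzyme catalase, had CA peaks of 20.5-fold and 20.3-fold, 1804 and 1578 bp upstream, and Clcn4, a chloride and proton exchanger, had CA peaks of 29.2-fold and 18.8-fold in an intron. Eif2s3y on chromosome Y had GA peaks of 16.0-fold and 13.1-fold within 1009 bp upstream. In these 4 genes the peaks lie close to each other and share their surroundings. At Akirin2, Dcpp2, Kalrn and Prss47 the 2 peaks were kilobases apart or at different starts, and at Lrrc74b and Pdcd1lg2 they shared an intron.

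Most start-site peaks, 241 of 277, had the start of only 1 gene within 5000 bp, while 27 had those of 2 genes and 9 those of 3 or more. Of the 9, 6 were in the dense groups. The others were the Fxyd1 and Hist1h4a peaks and a peak 1155 bp upstream of 9130213A22Rik. That last peak had 23 reads and 20.9-fold, with the starts of Aloxe3 and Hes7 within reach and its summit in a 3′ UTR. The other 3′ UTR peaks lay at Olfr243 (28.2-fold), Npbwr1, a neuropeptide receptor (26.4-fold), Olfr1487 (25.3-fold), Saa4, a serum amyloid (18.1-fold), Olfr652 (13.1-fold) and Dcaf12l2 (12.2-fold). Of the 11 coding-exon peaks, 9 were in the dense groups, and the others were those of Hist1h4a and G530012D18Rik (16.0-fold).

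The 3 dense groups of peaks outside tandem repeats accounted for 30 start-site peaks, all at predicted genes. A group was at least 4 such peaks with neighbours at most 10000 bp apart. The rule for tandem repeats counted only units of at most 6 bases, so a head-to-tail array of longer units also falls outside it. The largest, at chr9:3000023-3036105, had 18 peaks at the starts of 9 predicted genes (Gm10715, Gm10717 to Gm10722, Gm11168 and Gm17535). Its sequence matched itself most often at a shift of 234 bp, in 211 of 355 windows. That shift is longer than any unit the rule counted. The median identity of the best match was 86.5%, over all 355 windows and any shift of 50 to 400 bp. The second, at chr2:98662250-98667302, had 6 peaks at Gm10800 and Gm10801, and the third, at chr14:19416127-19419423, had 6 at Gm21738. The same median identity was 40% in the second group and 74% in the third. Their commonest shifts were 120 bp in 6 of 45 windows and 351 bp in 10 of 27. The identity is the best of many shifts, so it is above 0 in any sequence. A further group on chromosome 17, with no start-site peak, stood at 34%, close to the second group.

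These 30 peaks differed from the rest in depth and background. They had a median of 47.5 reads, beside 18 in the 247 others, yet a lower median fold of 12.9, beside 17.4. Their median background was 3.10 reads, beside 0.0771, so the local estimate was high where the pile was high. Their GC content was 34.6% beside 50%, and their median distance from a start 604.5 bp. The strongest, at Gm10800, held 92 reads over 3.00 and reached 23.3-fold. Of the 277 start-site peaks, 10 (3.61%) shared a base with an H3K27me3 region, beside 9 of 2810 distal peaks (0.320%). Outside the groups this held for 1 of 247 start-site peaks (0.405%) and 7 of 2805 distal peaks (0.250%). Of the 10 start-site peaks, 9 were in the groups on chromosomes 9 and 2 and 0 on chromosome 14. That the same places were listed in a second library with another antibody and genotype was measured; its source was not tested. Without the groups, the number of genes with a peak was 253 in place of 265.

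Of the 30 start-site peaks outside both tandem repeats and dense groups, 6 overlapped tRNA genes by at least 1 base. This was 2.166% of the start-site peaks (0.799 to 4.66) and 0.249% of the distal ones (7 peaks, 0.100 to 0.513), and the intervals do not overlap. Seen from the tRNA genes, 6 of the 77 near a protein-coding start had a peak (7.79%, 2.91 to 16.2), beside 7 of the 326 elsewhere (2.15%, 0.868 to 4.37), and here the intervals overlap. tRNA genes are short genes read by RNA polymerase III, with their promoter inside the transcribed part.

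The tRNA peak at Ctnna3 was the strongest, 585 bp upstream with 39 reads and 33.5-fold. Those of AK157302 (2334 bp upstream, 22 reads) and Ppp6r3, a subunit of protein phosphatase 6 (554 bp upstream, 26 reads), stood at 21.6-fold and 21.4-fold. The peak at Atp5h, a subunit of ATP synthase, reached 17.1-fold. Those at Polr3e and Trim41 stood at 14.2-fold and 12.8-fold. Polr3e itself encodes a subunit of RNA polymerase III, and the summit of the peak on the tRNA gene lies 214 bp before its start. The 6 had a GC content of 56.9% at the median, beside 50% in the start-site peaks as a whole.

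Of the same 30 peaks, 17 had perfect runs over 20 to 50% of their bases, as at Cd44, Gpr31b (29.1-fold), Gm1979 (28.2-fold), Gm21876 (23.5-fold), Cytl1 (23.0-fold), Pomgnt2, an enzyme of dystroglycan glycosylation (21.2-fold), Olfr463 (20.5-fold) and Cped1 (18.8-fold). A further 2 had shorter runs, and 11 had none at all, of which 6 were the tRNA peaks. Mycn, a MYC family factor, had a peak 4829 bp upstream at 18.6-fold. The peak 1577 bp upstream of Kpna1, an importin, stood apart, with 55 reads over a background of 2.09 and 18.1-fold.

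The palindromic GR element was not found at the summits. In windows of 200 bp centred on the summit, read on both strands, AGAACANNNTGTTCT was found in 0 of 277 start-site peaks and 0 of 2810 distal peaks. The looser GNACANNNTGTNC was found in 0 and 5 (0.178%), and in 91 of 41408 windows of the same length at protein-coding start sites (0.220%). The core ACANNNTGT, which any match of these also holds, was found in 3 (1.08%), beside 2.85% of distal peaks and 3.13% of start sites. A missing match says only that these letters are not in the window, and nothing about the receptor.

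The other motifs searched include both repeat units. GAGAGAGA stood in 154 windows (55.6%) and CACACACA in 119 (43.0%). Among distal peaks the shares were 62.9% and 42.2%, and among start-site windows 2.84% and 2.44%. Without the dense groups the start-site peaks stood at 154 of 247 (62.4%) for GAGAGAGA, near the distal share. For CACACACA they stood at 118 of 247 (47.8%). CAGCTG, an E-box letter string bound by myogenic factors, stood in 7 (2.53%), beside 1.53% of distal peaks and 12.1% of start sites. CCAAT stood in 25 (9.03%) and TATAAA in 11 (3.97%), beside 8.75% and 5.98% of distal peaks and 25.3% and 7.19% of start sites. GGGCGG, the GC box, stood in 6 (2.166%), beside 0.534% of distal peaks and 40.04% of start sites. TGACTCA, the AP-1 element, stood in 5 (1.81%), beside 1.35% of distal peaks and 2.68% of start sites.

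CpG-rich starts made up a smaller share of the genes with a peak than of all genes; no test was run. A start was called CpG-rich when the stretch from 250 bp before to 50 bp after it had a GC content of at least 50% and an observed-to-expected CpG ratio of at least 0.6. This held for 104 of the 265 genes with a peak (39.2%, 33.3 to 45.4), beside 49.8% of 21817 genes. Without the dense groups it held for 104 of 253 (41.1%, 34.98 to 47.4). Predicted or unnamed genes made up 27 of the 265, or 15 of the 253, beside 2076 of all 21827 protein-coding genes.

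How well a read can be placed bears on every value above. The median 31-base word in a start-site peak occurred at 9 places in mm10, beside 10 for distal peaks. Of the 277 peaks, 89 held no 31-base word that is unique in the genome, and 88 of these were outside the dense groups. Only 1 peak, in the dense group on chromosome 9, was made of unique words throughout. The repeat-masked (lower-case) part of the reference took more than 50% of the peak in 96.0% of start-site and 98.9% of distal peaks. How reads with several matches were treated is not given in the sources used here, and its part in the peaks was not tested.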

How the data were processed

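A GR peak list (GR(i)skm-/- muscle) and an H3K27me3 list (WT muscle), of 1 library each, were used as deposited. Per the submitters' processing notes, bases were called with bcl2fastq 2.17.1.14, reads aligned with Bowtie 1.0.0 to mm10 and peaks called with MACS2. Which control the caller used, and how multiply matching reads were handled, is not given in the sources used here. The deposited fold (a ratio) divides the summit pileup by the local background after adding 1 read to each. Per the file's values, deposited significance is a p-value and a q-value as −log10. The deposited score is 10 times the −log10 q without its decimals. Neither list gives a read total, so library depth is unknown.

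Summits were placed on GENCODE vM21 starts in mm10, and sequences were read from the RefSeq copy of that assembly, which also gave the tRNA genes. Reads per summit are the whole number that solves the deposited fold and −log10 p under a Poisson model, within 0.001 for all 3087 peaks. Tested on simulated data, the procedure found 500 of 500 planted tracts, 500 of 500 pileups and 500 of 500 strands, and called 0 of 500 random windows a repeat. The pileups were simulated with the same formula that is solved, and each planted tract was unbroken. These scores therefore check the code only, not its calls on the interrupted runs of the real peaks. Tools were pysam 0.24.0, numba 0.67.0, scipy 1.17.1, pandas 2.3.3, numpy 2.4.6 and matplotlib 3.10.9 under Python 3.11.15. Genes named are the 20 strongest peaks, the 15 closest, peaks in exons, list members, genes with several peaks, peaks at 3 or more genes, the 15 strongest outside tandem repeats and those beside the distance limit, and a few others where stated. Some peak sequences are not reported here. The members, lists and rules were chosen with earlier results of these data known. Alternatives were other distances (2500 and 10000 bp), other placements and transcript sets, a fold of at least 20, tracts over 80% of a peak, and leaving out the dense groups, which was added after the data were seen.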

Additional observations from a re-analysis of the deposited data

How the results depend on the processing

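Of 56 values recomputed for 9 results, 39 stayed within 1.5 times the reported count, or within the 95% binomial interval of the reported share or median, and 17 moved. The direction of some moves was set in advance. A fold cut raises the median fold and lowers the counts, and another distance limit changes the counts. The tally is therefore no measure of how stable the results are. With a distance of 2500 bp there were 156 peaks and 135 genes, a median of 21 reads, 67.9% in tandem repeats and 18.6% with the unit CA. With 10000 bp there were 489 peaks and 516 genes. With a fold of at least 20 there were 89 peaks and 91 genes, a median fold of 26.3, a median of 28 reads, 86.5% in tandem repeats and 65.2% upstream. With tracts over at least 80% of a peak, 49.8% were in tandem repeats, 22.4% with the unit GA and 18.1% with CA. Without the dense groups, an alternative added after seeing the data, 87.9% were in tandem repeats. No paired analysis was possible because each list comes from 1 library and no comparison between groups of samples was made. For the same reason no library could be left out. A median of 19 reads per summit, an unknown library depth and the unstated handling of reads with several matches limit every value.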
